A study of Mus musculus with 15 samples.

Results

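The genes of apoptotic cell uptake examined here are 9 rows of a deposited count table of 47729 features, taken by their symbols: the receptor tyrosine kinases Axl and Tyro3, the bridging proteins Gas6, Pros1 and Mfge8, the endocytic receptor Lrp1, the engulfment adaptor Elmo1, and the inhibitory pair Sirpa and Cd47. Mertk, the third receptor of the TAM family (Tyro3, Axl, Mertk), was read beside them. Dying cells expose phosphatidylserine, which macrophages recognise directly or through soluble bridging proteins. Gas6 and protein S (Pros1) tether phosphatidylserine to TAM receptors, and Mfge8 tethers it to integrins, while Lrp1 and the Elmo1 to Rac route serve engulfment. Cd47 on a target cell binds Sirpa on the phagocyte and restrains uptake. In atherosclerotic arteries this clearance is known for limiting the necrotic core of plaques.

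The libraries were low-input Smart-Seq2 RNA profiles, in which cDNA of small sorts is amplified by PCR, of aortic cells sorted as F4/80+ CD64+ macrophages and labelled Olfr2+ or Olfr2- for the olfactory receptor Olfr2. Every group came from female Apoe-/- mice, written "Apoe dko" in one label field, given a high fat (Western) diet for 4 weeks; no age is given in the labels used here. The sorts are described as technical replicates of aortas pooled from 4 mice, so the spread behind each p-value is that of these samples and may be technical only. The 5 Olfr2- columns carry the sample numbers 1, 3 and 4 and the 10 Olfr2+ columns the numbers 2, 3 and 4, each with a letter for a repeat, a reading that the labels do not spell out. Fewer cells of a type and less RNA per cell cannot be told apart in such bulk samples.

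The columns fell into sets by depth and by markers of other cell types. The 5 Olfr2- columns held 30.5 to 53.2 M counts (M, 1000000) and 3 Olfr2+ columns (3D, 4A and 4B) held 29.9 to 37.6 M, while the other 7 Olfr2+ columns held 76.0 to 95.6 M. These are called the shallower and the deeper columns, divided at 60 M. Columns 3C and 3D share a library name and stand in different sets. Summed fibroblast markers (10 genes) reached 48820 to 64226 CPM (counts per 1000000 of the column total) in the deeper columns against 2988 to 4913 CPM in Olfr2- and 3249 to 6196 CPM in the shallower Olfr2+ columns. Summed B cell markers (7 genes) ran the other way, at 213 to 5391, 22934 to 41535 and 35235 to 54917 CPM, and summed macrophage markers (12 genes) were 7760 to 15673, 1947 to 8867 and 3168 to 4412 CPM. No marker of these lists was at 0 throughout a set, and Fcgr1, which encodes CD64, had medians of 44.2, 4.49 and 1.24 CPM in the deeper, Olfr2- and shallower Olfr2+ columns, and Adgre1, which encodes F4/80, had 210, 26.7 and 54.6 CPM. Olfr2 itself had 76, 0, 34, 25 and 10 counts in the Olfr2- columns and at most 7 in any Olfr2+ column, which goes against the labels, so Olfr2+ and Olfr2- below always mean the libraries so labelled.

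**Figure D1:**
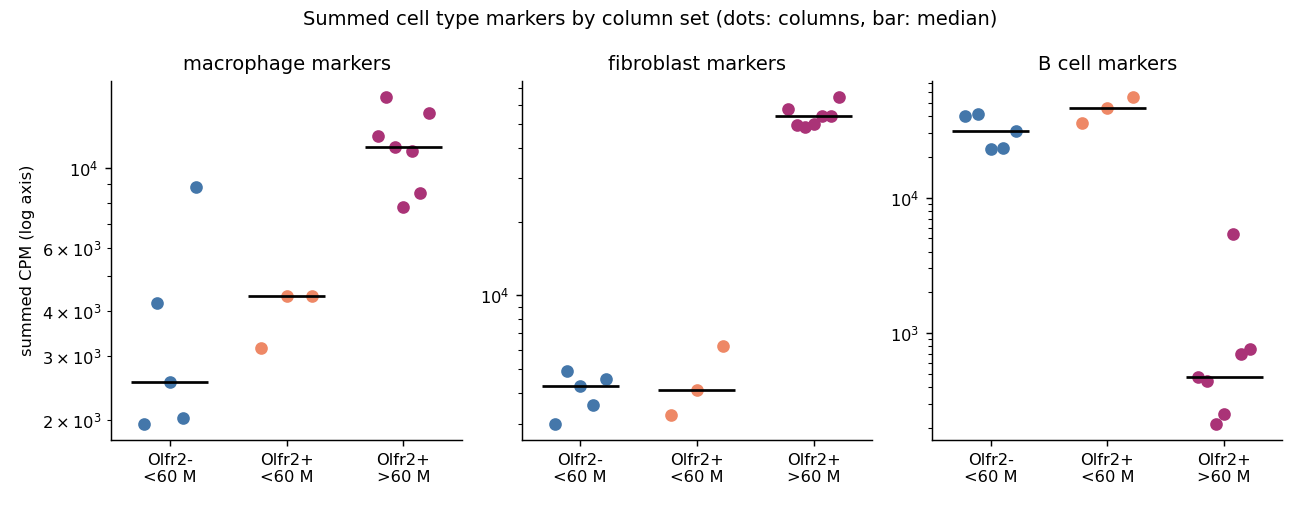
Summed CPM (log axis) of macrophage, fibroblast and B cell markers, with 1 dot per column and a bar at the median of the Olfr2- columns, the shallower Olfr2+ columns and the deeper Olfr2+ columns. The deeper columns are above both other sets in fibroblast markers and below them in B cell markers.

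The sequences upstream of Axl, Gas6 and Mfge8 are shown because these 3 genes had the largest fitted differences between the labels among the 9. They are the 250 bases before each transcription start in RefSeq's GRCm38.p6 annotation, 5′ to 3′ on the gene's own strand, which is the minus strand for all 3. Axl lies at chr7:25788734-25788983, Gas6 at chr8:13494536-13494785 and Mfge8 at chr7:79149061-79149310. Capitals mark GC boxes, the letters GGGCGG or CCGCCC, which are bound by Sp-family factors.
Axl: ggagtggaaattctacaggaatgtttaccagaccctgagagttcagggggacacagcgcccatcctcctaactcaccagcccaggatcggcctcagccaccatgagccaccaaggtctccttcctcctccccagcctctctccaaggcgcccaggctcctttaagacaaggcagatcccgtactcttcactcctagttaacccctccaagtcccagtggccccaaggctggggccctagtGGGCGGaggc
Gas6: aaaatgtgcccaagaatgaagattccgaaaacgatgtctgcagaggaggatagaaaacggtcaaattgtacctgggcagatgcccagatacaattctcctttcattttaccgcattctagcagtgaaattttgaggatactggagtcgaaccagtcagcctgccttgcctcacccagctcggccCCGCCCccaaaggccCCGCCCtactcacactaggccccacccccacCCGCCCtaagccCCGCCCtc
Mfge8: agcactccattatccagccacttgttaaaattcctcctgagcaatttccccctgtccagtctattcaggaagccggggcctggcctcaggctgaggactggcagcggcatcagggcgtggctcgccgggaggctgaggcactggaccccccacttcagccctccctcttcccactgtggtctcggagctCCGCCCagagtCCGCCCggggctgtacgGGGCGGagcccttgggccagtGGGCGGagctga
Axl had 1 GC box, and Gas6 and Mfge8 had 4 each, against at least 1 in 32.7% of the 32851 RefSeq promoters of the same window. The other matched members had them too: Pros1 5, Tyro3 3, Cd47 2, Lrp1 1, and Elmo1 3 at 1 start and 0 at another. Mertk had 3, so GC boxes do not set the 3 printed genes apart. GC content ran from 43.6% to 74.4% in these windows, against a median of 52.4% over all promoters. The AP-1 letters TGAGTCA or TGACTCA were in none of the windows of the 8 members that matched the table and in 4.46% of all promoters. The PU.1-type letters GAGGAAG or CTTCCTC occurred once, in Axl, and in 10.6% of all promoters. None of these motifs shares letters with another in the printed stretches. Sirpa was not matched in the promoter table.

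Gas6, the high-affinity ligand of the TAM receptors, and Mfge8 were the 2 members that passed the test with all columns, both upward in Olfr2+. The 9 members were chosen with earlier results of these data known, so the shares of all genes beside them are description. After the columns of each numbered sample were summed, 2 of 9 members passed an adjusted p of 0.05 upward and 0 downward in edgeR's quasi-likelihood test, against 1.12% of 24362 genes upward (273) and 0.460% downward (112). Scaling by library totals alone turned this split to 86 genes upward and 310 downward. At an unadjusted 0.05, 5 of 9 passed, against 32.1% of all genes in either direction. The median log2 fold change was 2.29 over the 9 members and 0.24 over all genes. With genes of a mean of at least 10 CPM only and the scaling kept, it was 2.59 over 8 members and 1.67 over 8504 genes. Much of the gap to 0.24 was thus shared by well-expressed genes at large. None of the 9 passed when only shallower columns were used, which keeps Olfr2- samples 1, 3 and 4 and Olfr2+ samples 3 and 4: 0 members and 0 of 29989 genes were called in either direction, 0 members and 3127 genes (10.4%) had an unadjusted p under 0.05, and the medians were 1.08 and -0.43.

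Gas6 stood at 29.0, 69.7, 89.4, 70.9 and 60.3 CPM in the Olfr2- columns 1A, 3A, 3B, 4A and 4B. In the shallower Olfr2+ columns 3D, 4A and 4B it was at 88.3, 87.7 and 23.9 CPM, and in the deeper ones the lowest, median and highest values were 760, 1153 and 1504 CPM. Every deeper column was thus above every other column, while the shallower Olfr2+ columns lay within or below the Olfr2- range. Scaled by trimmed mean of M values (TMM), the sample levels were 2115, 1617 and 68.5 CPM for Olfr2+ 2, 3 and 4 against 17.6, 57.7 and 43.8 CPM for Olfr2- 1, 3 and 4. On that scale the groups did not overlap, with Olfr2+ 4, which has shallower columns only, closest to the Olfr2- samples. Scaled by library totals they overlapped. The log2 fold change of Gas6 was 4.996 (edgeR adjusted p = 0.0300, SE 1.07), and it was 1.08 (adjusted p = 0.773, SE 1.25) in the shallower columns. Over the 17 alternative settings the adjusted p of Gas6 ran from 0.000912 to 0.893 and was under 0.05 in 11. Without Olfr2+ sample 2 it was 0.123.

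Mfge8, the milk fat globule protein that links phosphatidylserine to alpha v integrins, was at 4.66, 10.9, 24.3, 13.2 and 23.7 CPM in the Olfr2- columns. It was at 6.14, 11.6 and 3.45 CPM in the shallower Olfr2+ columns and at 155, 460 and 785 CPM (lowest, median, highest) in the deeper ones. The deeper columns again stood apart from all others, and the shallower Olfr2+ columns did not. Sample levels were 954, 529 and 9.19 TMM-scaled CPM in Olfr2+ against 2.82, 11.9 and 11.7 in Olfr2-, so the groups overlapped at Olfr2+ 4. Its log2 fold change was 5.82 (edgeR adjusted p = 0.0370, SE 1.31) with all columns and -0.12 (adjusted p = 0.981, SE 1.46) in the shallower columns. Over the 17 alternatives the adjusted p ran from 0.000431 to 0.981 and was under 0.05 in 10. It was 0.145 without Olfr2+ sample 2 and 0.0501 without Olfr2- sample 3.

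Both ligands were also set against the fibroblast markers of the same sample. The log2 ratio of Gas6 counts to the summed counts of Dcn, Col1a1, Col1a2 and Col3a1 was -4.89, -4.55 and -5.91 in Olfr2+ 2, 3 and 4 and -6.14, -5.36 and -5.55 in Olfr2- 1, 3 and 4. These ranges overlapped, with a difference in means of 0.57 (exact two-sided permutation p = 0.3, adjusted 0.565 over 24 ratios). For Mfge8 the same ratio was -6.04, -6.16 and -8.81 against -8.78, -7.64 and -7.45, a difference of 0.95 (exact permutation p = 0.4, adjusted 0.565). Olfr2+ 4 alone lay within or below the Olfr2- range. Leaving it out removes the overlap by choice, so it tests nothing, and the differences were then 0.96 for Gas6 and 1.85 for Mfge8. Leaving out any other single sample gave 0.28 to 0.73 for Gas6 and 0.47 to 1.20 for Mfge8. Relative to summed Csf1r, Adgre1, Cd68 and Fcgr1, Gas6 was at -0.30, 0.31 and -3.98 in Olfr2+ and -2.82, -3.90 and -3.04 in Olfr2-, and Mfge8 at -1.45, -1.30 and -6.87 against -5.45, -6.18 and -4.94. The log2 differences were 1.93 and 2.32, with Olfr2+ 4 below all Olfr2- samples (exact permutation p = 0.4 for each, adjusted 0.565). Without Olfr2+ 4, again the overlapping sample, they were 3.26 and 4.15. Leaving out any other single sample gave 1.12 to 2.15 for Gas6 and 1.36 to 2.61 for Mfge8. In every one of these tests 0.1 is the smallest p possible.

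Pros1, the other TAM ligand, did not pass the test. It was at 91.8, 35.5, 6.79, 26.4 and 4.37 CPM in Olfr2-, at 43.8, 99.2 and 12.6 CPM in the shallower Olfr2+ columns, and at 6.52, 89.7 and 213 CPM (lowest, median, highest) in the deeper ones. All 3 sets overlapped by column, and the 4 columns of Olfr2+ sample 2 alone ran from 6.52 to 146 CPM. By sample, 135, 186 and 70.1 TMM-scaled CPM in Olfr2+ were all above the 55.6, 18.5 and 11.1 of Olfr2-, though not by library totals, with a log2 fold change of 2.20 (edgeR adjusted p = 0.170, SE 1.13). Per kilobase of exon, the median share of Gas6 in summed Gas6 and Pros1 was 94.7% in the deeper columns, 75.3% in the shallower Olfr2+ columns and 81.1% in Olfr2-. The log2 ratio of Gas6 to Pros1 counts was 3.97, 3.12 and -0.03 in Olfr2+ 2, 3 and 4 and -1.66, 1.64 and 1.98 in Olfr2- 1, 3 and 4, so the groups overlapped (difference 1.70, exact permutation p = 0.4, adjusted 0.565). In the shallower columns that difference was -0.16 (exact permutation p = 1).

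**Figure D2:**
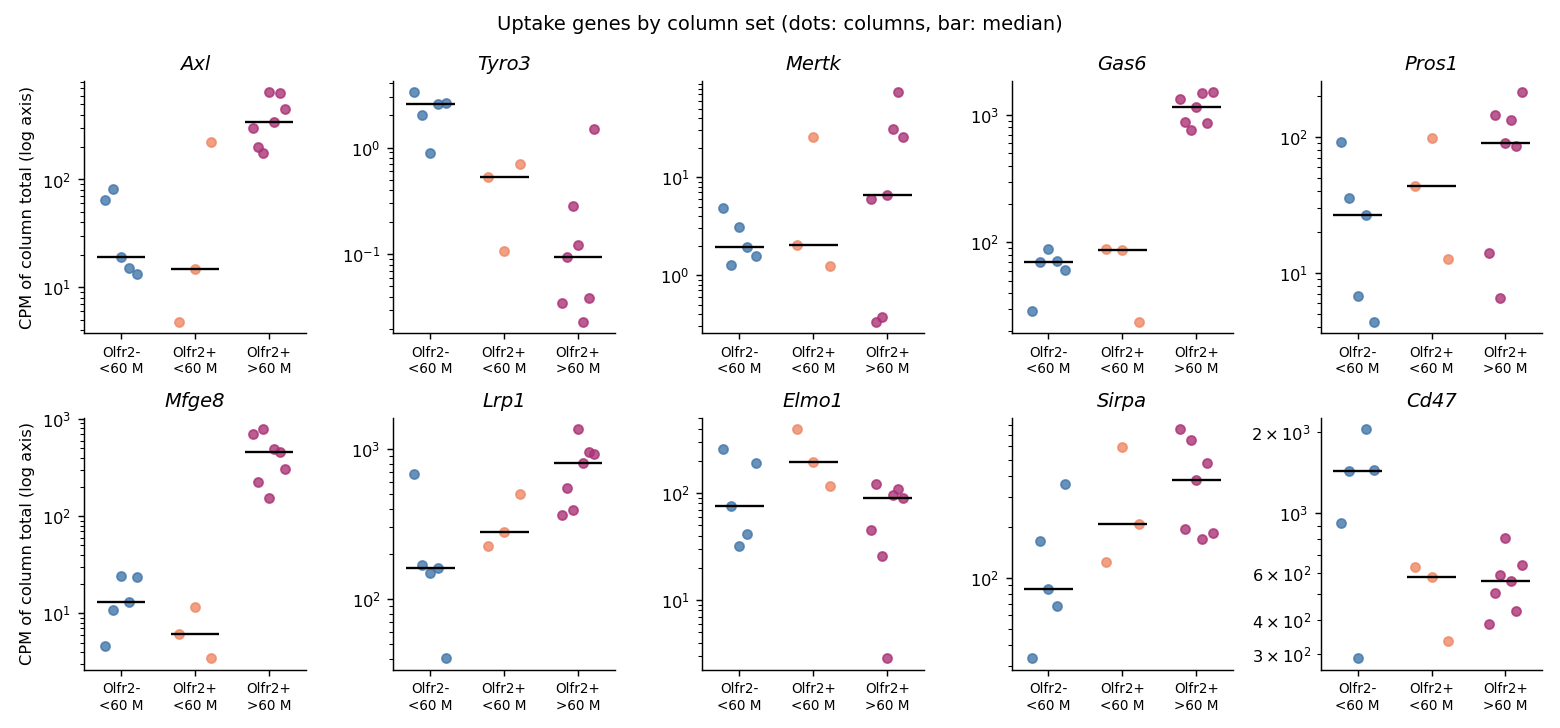
CPM of the 9 uptake genes and Mertk in each of the 15 columns (log axis), with a bar at the median of the Olfr2- columns, the shallower Olfr2+ columns and the deeper Olfr2+ columns. Gas6 and Mfge8 in the deeper columns are above every other column, and Tyro3 is under 4 CPM in every column.

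Axl, a TAM receptor that binds Gas6, was higher in Olfr2+ by sample but did not pass the test. It was at 65.1, 81.6, 18.9, 15.01 and 13.2 CPM in the Olfr2- columns. The shallower Olfr2+ columns gave 4.79, 14.9 and 225 CPM for 3D, 4A and 4B, and the deeper ones gave 177, 343 and 642 CPM (lowest, median, highest). Of columns 4A and 4B, which share a library name, 4A lay inside the Olfr2- range and 4B above it. At the sample level, 676, 588 and 124 TMM-scaled CPM in Olfr2+ stood above 39.4, 43.6 and 9.40 in Olfr2-. Relative to the summed fibroblast markers Dcn, Col1a1, Col1a2 and Col3a1, the groups overlapped. That log2 difference was 0.30 (exact permutation p = 0.9, adjusted 0.982). Relative to summed Csf1r, Adgre1, Cd68 and Fcgr1 it was 1.67, also with overlap (exact permutation p = 0.3, adjusted 0.565). The log2 fold change of Axl was 3.91 (edgeR adjusted p = 0.0535, SE 1.06), and in the shallower columns it was 1.18 (adjusted p = 0.785, SE 1.44). Axl passed in 6 of 17 alternatives, with adjusted p between 0.00348 and 0.823; without Olfr2+ sample 4 it was 0.0433.

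Tyro3, the TAM receptor best known from the nervous system, was the least abundant member and did not pass the test. Its Olfr2- columns held 100, 108, 28, 106 and 84 counts, which is 3.28, 2.03, 0.88, 2.53 and 2.62 CPM. The 10 Olfr2+ columns held between 2 and 114 counts, or 0.02 to 1.501 CPM, and only 3C exceeded 1 CPM. Sample levels were 0.28, 0.71 and 0.43 TMM-scaled CPM in Olfr2+ against 1.99, 1.20 and 1.70 in Olfr2-, without overlap. The log2 fold change was -1.78 (edgeR adjusted p = 0.318, SE 1.32). With the shallower columns alone it was -1.61 (adjusted p = 0.547, SE 0.96), again without overlap, and adjusted p ran from 0.181 to 0.858 over 15 alternatives.

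Mertk, the TAM receptor most closely tied to efferocytosis by macrophages, was low and uneven. It was at 4.86, 1.26, 3.11, 1.91 and 1.56 CPM in Olfr2-, at 2.01, 25.8 and 1.24 CPM in the shallower Olfr2+ columns, and at 0.33, 6.53 and 73.2 CPM (lowest, median, highest) in the deeper ones. Its log2 fold change was 3.80 (edgeR adjusted p = 0.110, SE 1.54), with 6.65, 53.7 and 17.2 TMM-scaled CPM in Olfr2+ against 2.94, 1.46 and 1.16 in Olfr2-. By library totals the samples overlapped. In the shallower columns they overlapped on both scales, with a log2 fold change of 2.52 (edgeR adjusted p = 0.527). Olfr2+ 4 rests mostly on column 4A, with 970 counts against 37 in 4B. The order of the receptors per kilobase of exon was Axl, Mertk, Tyro3 at the median of each set. Axl made up 88.2% to 99.8% of summed TAM receptor CPM per kilobase in the deeper columns and 77.1% to 96.3% in Olfr2-. The shallower Olfr2+ columns 3D, 4A and 4B gave 63.4%, 33.1% and 99.1%, and Mertk was the larger share in 4A, at 66.7%.

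**Figure D3:**
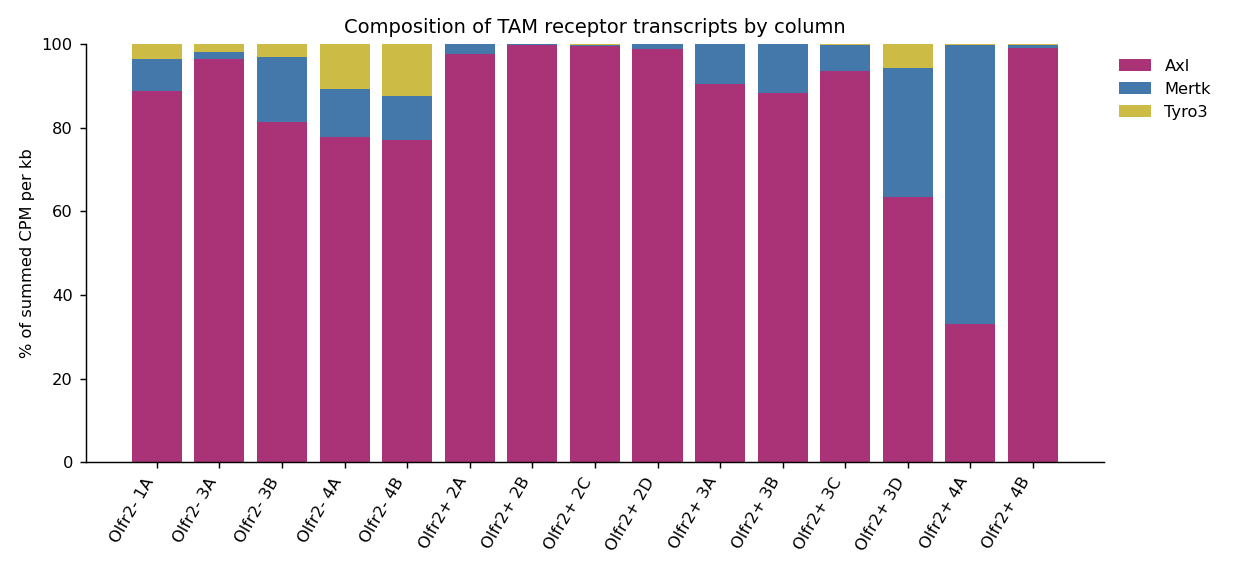
Share of Axl, Mertk and Tyro3 in their summed CPM per kilobase of exon, with 1 bar per column. Axl is the largest share in 14 of the 15 columns, and Mertk is the largest in Olfr2+ 4A.

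Ratios within a sample do not depend on library scaling. The log2 ratio of Axl to Tyro3 counts was 11.23, 9.68 and 8.16 in Olfr2+ 2, 3 and 4 and 4.30, 5.18 and 2.47 in Olfr2- 1, 3 and 4, a difference of 5.71 without overlap. The exact two-sided permutation p was 0.1, the smallest possible, and 0.343 after adjustment over 24 ratios. Mertk to Tyro3 was 4.57, 6.23 and 5.30 against 0.56, 0.29 and -0.55, a difference of 5.27 that reached the same p (exact permutation p = 0.1, adjusted 0.343). In the shallower columns Mertk to Tyro3 still did not overlap, with a difference of 3.49 (exact permutation p = 0.1, adjusted 0.6), but Axl to Tyro3 did, with 3.13 in Olfr2+ 3 and 8.16 in Olfr2+ 4. Axl to Mertk differed by 0.44 with all columns, with overlapping groups (exact permutation p = 0.9), and by -1.83 in the shallower columns (exact permutation p = 0.2).

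Lrp1, the large endocytic receptor that takes up lipoproteins and serves apoptotic cell clearance, was at 679, 170, 149, 161 and 40.4 CPM in the Olfr2- columns. It was at 225, 280 and 499 CPM in the shallower Olfr2+ columns and at 361, 801 and 1354 CPM (lowest, median, highest) in the deeper ones. Olfr2- 1A reached into the deeper range, and the other 4 Olfr2- columns lay below every Olfr2+ column. Sample levels of 1370, 1146 and 435 TMM-scaled CPM in Olfr2+ and 411, 121 and 71.7 in Olfr2- did not overlap, but they did by library totals. The log2 fold change was 2.29 (edgeR adjusted p = 0.100, SE 0.88), and it was 0.91 (adjusted p = 0.765, SE 1.00) in the shallower columns. Relative to the fibroblast markers the log2 difference of Lrp1 was -1.03, with overlapping groups (exact permutation p = 0.5, adjusted 0.632).

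Elmo1, the adaptor that with a Dock partner activates Rac at the phagocytic cup, had its highest median in the shallower Olfr2+ columns. Its values were 396, 194 and 117 CPM there, 260, 75.3, 32.2, 41.8 and 190 CPM in Olfr2-, and 2.86, 89.4 and 123 CPM (lowest, median, highest) in the deeper columns. All sets overlapped by column. By sample, 104, 192 and 184 TMM-scaled CPM in Olfr2+ overlapped 157, 44.3 and 70.2 in Olfr2-, for a log2 fold change of 0.82 (edgeR adjusted p = 0.540, SE 0.99). In the shallower columns it was 1.88 (adjusted p = 0.523, SE 1.05), and there the groups did not overlap, except by library totals. With scaling by library totals alone the all-column value was -0.30 (adjusted p = 0.848), so Elmo1 has no settled direction.

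Sirpa, the inhibitory receptor on phagocytes, was at 33.4, 166, 85.6, 68.1 and 357 CPM in Olfr2-. It was at 125, 591 and 208 CPM in the shallower Olfr2+ columns and at 169, 380 and 758 CPM (lowest, median, highest) in the deeper ones. By sample the groups did not overlap, with 1008, 361 and 485 TMM-scaled CPM in Olfr2+ against 20.2, 102 and 128 in Olfr2-. The log2 fold change was 2.89 (edgeR adjusted p = 0.0786, SE 0.95), and in the shallower columns, where the groups again did not overlap after TMM scaling but did by library totals, it was 1.93 (adjusted p = 0.535, SE 1.12). It passed in 2 of 17 alternatives (adjusted p 0.0281 to 0.804). Mouse Sirpa has close relatives in the Sirpb1 family, so its counts are uncertain if reads were split among them.

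Cd47, the ligand of Sirpa and a signal carried by most cells, was at 917, 1436, 289, 2055 and 1449 CPM in Olfr2-. It was at 629, 580 and 335 CPM in the shallower and at 388, 559 and 808 CPM (lowest, median, highest) in the deeper Olfr2+ columns. Olfr2- 3B was the lowest of all columns, and the other 4 Olfr2- columns were above every Olfr2+ column. After TMM scaling the samples ran over the same range, 1184, 788 and 544 CPM in Olfr2+ and 555, 754 and 1184 CPM in Olfr2-, with a log2 fold change of 0.01 (edgeR adjusted p = 0.991, SE 0.75). With library totals alone it was -1.22 (adjusted p = 0.253), within a range of 0.253 to 0.989 over 17 alternatives. The direction of this fold change thus depends on the scaling. Library totals moved the median of all genes from 0.24 to -0.88. Ratios to markers do not depend on scaling but move with the markers. Relative to summed Csf1r, Adgre1, Cd68 and Fcgr1, the log2 difference of Cd47 was -2.18, and relative to the fibroblast markers -3.54. Neither overlapped (exact permutation p = 0.1 for each, the smallest possible, adjusted 0.343). In the shallower columns they were -1.51 and -1.07, with overlap (exact permutation p = 0.3 for each, adjusted 0.6).

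The log2 ratio of Cd47 to Sirpa counts was 0.23, 1.13 and 0.16 in Olfr2+ 2, 3 and 4 and 4.78, 2.89 and 3.21 in Olfr2- 1, 3 and 4. Sirpa was thus nearest to Cd47 in the Olfr2+ samples, where Cd47 held 1.17, 2.19 and 1.12 counts for each Sirpa count against 27.5, 7.40 and 9.26 in Olfr2-. The difference of -3.12 did not overlap (exact two-sided permutation p = 0.1, the smallest possible, adjusted 0.343). In the shallower columns the ratio was 2.34 in Olfr2+ 3 and 0.16 in Olfr2+ 4, still below all 3 Olfr2- samples, with a difference of -2.38 (exact permutation p = 0.1, adjusted 0.6). By column the sets overlapped: Cd47 was 72.6% to 95.9% of summed Cd47 and Sirpa per kilobase in Olfr2-, 43.5% to 79.8% in the shallower and 28.6% to 73.2% in the deeper Olfr2+ columns.

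**Figure D4:**
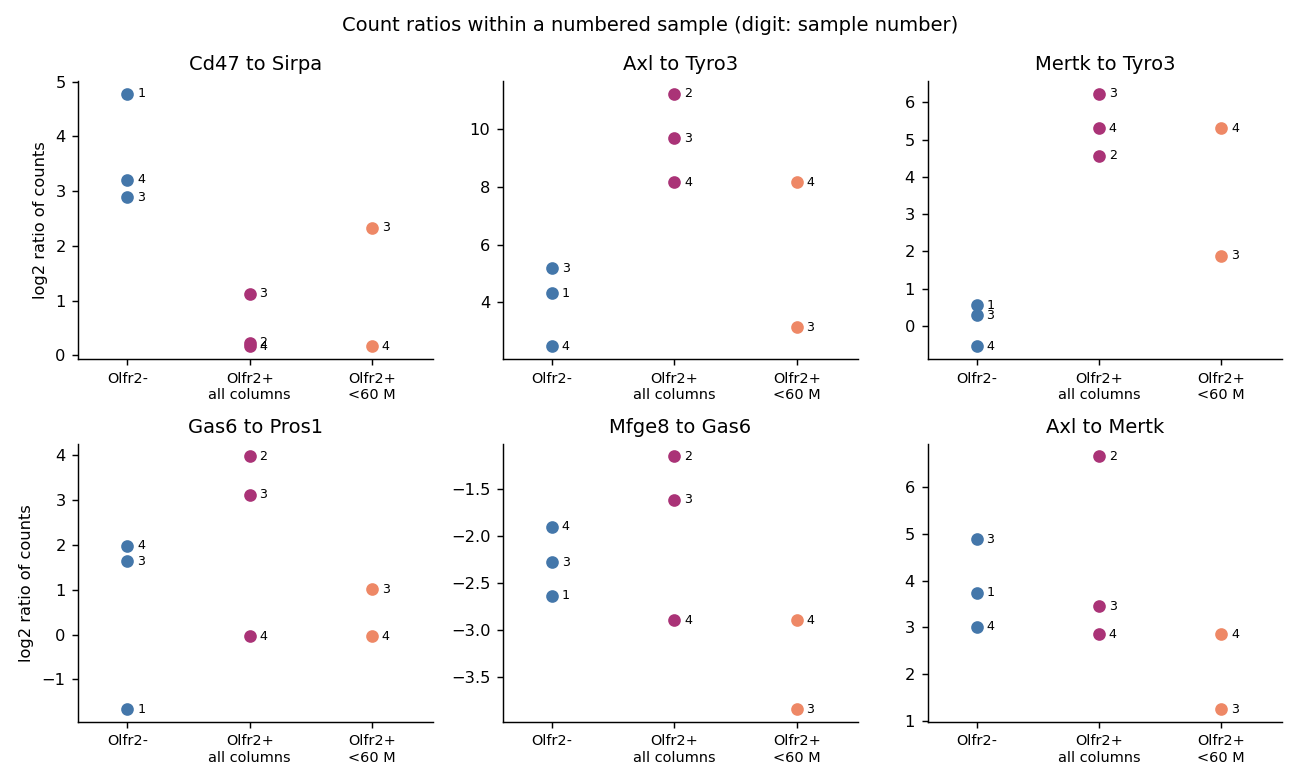
Log2 ratios of counts within each numbered sample for 6 pairs, with 1 dot per sample and its number beside it: Olfr2-, Olfr2+ with all columns, and Olfr2+ with columns below 60 M counts. Cd47 to Sirpa is between 0.16 and 1.13 in Olfr2+ and between 2.89 and 4.78 in Olfr2- with all columns.

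Counted by non-overlap of TMM-scaled levels of the 3 samples against 3, 5 of 9 members were higher in Olfr2+ (Axl, Gas6, Pros1, Lrp1 and Sirpa), against 13.5% of all genes, and Tyro3 was lower, against 22.1%. In the shallower columns, Gas6, Elmo1 and Sirpa were higher, against 9.28% of all genes, and Tyro3 was lower, against 17.1%. Gas6 and Sirpa were on both lists, and in the shallower columns neither passed the test. By library totals, a count added after seeing the data, only Axl and Sirpa stayed higher with all columns, against 6.19% of genes, and Tyro3 and Cd47 were lower, against 29.9%. In the shallower columns 0 members were then higher, against 4.06%, and Tyro3 and Cd47 were lower, against 29.3%. With library totals alone the member median of the fit was 0.96 and 2 members, Gas6 and Mfge8, passed upward, against 0.353% of genes. DESeq2 called 4 upward (Axl, Gas6, Mfge8 and Sirpa), against 12.5% of genes, as did edgeR with each library name as a unit, against 3.40%. In the ratios to fibroblast and to macrophage markers with all columns, only Tyro3 and Cd47 did not overlap, both lower in Olfr2+.

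**Figure D5:**
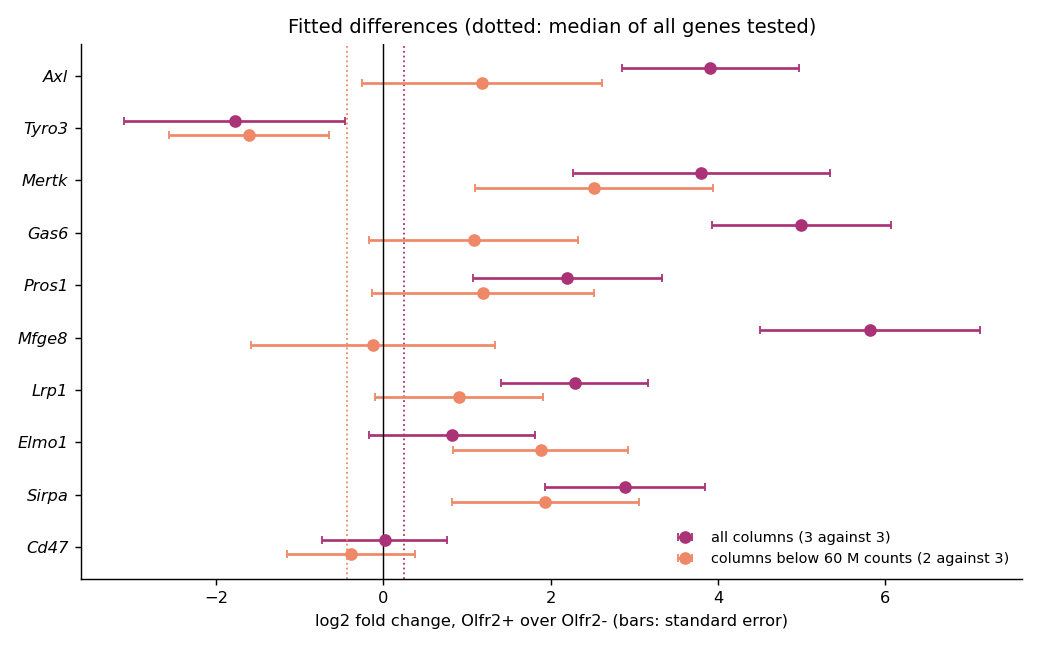
Log2 fold change (Olfr2+ over Olfr2-) of the 9 uptake genes and Mertk, fitted by edgeR on all columns and on columns below 60 M counts. Bars are the standard error worked out from the fold change and the test's F. Dotted lines mark the median of all genes tested, 0.24 and -0.43, and Mfge8 is at 5.82 with all columns and at -0.12 with the shallower ones.

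Columns of the same label and number allow a direct view of the depth sets. In Olfr2+ sample 3, Axl averaged 477 ± 149 CPM (SD, n = 3 columns) in 3A to 3C and was at 4.79 CPM in 3D. Mfge8 averaged 421 ± 101 CPM against 6.14, and Gas6 1283 ± 363 CPM against 88.3. Elmo1 was at 98.4 ± 10.6 CPM in 3A to 3C and at 396 CPM in 3D, and Cd47 at 545 ± 103 against 629 CPM. Of the 8 members with a mean of at least 10 CPM, 3 were at least 4-fold higher in 3A to 3C, against 42.5% of 8746 such genes, and 1 was at least 4-fold lower, against 12.4%. Over all Olfr2+ columns, Gas6 and Mfge8 were the 2 of 8 whose deeper columns were all above the shallower ones, against 7.07% of genes, and none of the 8 was wholly below, against 5.87%. Between shallower Olfr2+ and Olfr2- columns none of the 8 stood apart, against 2.42% of genes upward and 4.66% downward. Tyro3, outside that filter, was lower in all 3 shallower Olfr2+ columns than in any Olfr2- column.

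Per kilobase of exon, Gas6 led the members in the deeper columns with a median of 453 CPM per kb (298 to 590), and its range lay above that of every other member. Mfge8 (98.1), Cd47 (89.1), Sirpa (77.3), Axl (68.2) and Lrp1 (45.2 CPM per kb at the median) followed with overlapping ranges, then Pros1 (21.9), Elmo1 (7.11) and Tyro3 (0.02). In Olfr2- Cd47 led with 229 CPM per kb (46.1 to 327) ahead of Gas6 at 27.3 (11.4 to 35.1). Sirpa (17.4), Lrp1 (9.07), Pros1 (6.47), Elmo1 (5.98) and Axl (3.76 CPM per kb) followed, each overlapping in range with Gas6 and with each other. Mfge8 at 2.81 (0.99 to 5.17) overlapped with Lrp1, Pros1, Elmo1 and Axl and lay below Gas6 and Sirpa, and Tyro3 (0.41) was again last. Mfge8 was second among the 9 in the deeper columns and eighth both in Olfr2- and in the shallower Olfr2+ columns, where it was at 1.31 and Cd47 led with 92.5 CPM per kb.

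The wider uptake pathway was read from lists that total 73 genes, and 5 of them passed upward and 0 downward, against 1.12% and 0.460% of all genes. The lists include the 9 members and were chosen with earlier results of these data known, so this is no independent test. Their median log2 fold change was 1.63, beside 0.24 over all genes and 1.67 over the 8504 genes with a mean of at least 10 CPM. Among 9 TAM ligands and bridging molecules, Gas6, Mfge8 and the complement chains C1qb and C1qc passed. C1qb and C1qc encode subunits of C1q, which coats apoptotic cells, with log2 fold changes of 5.18 (edgeR adjusted p = 0.0382, SE 1.19) and 4.30 (adjusted p = 0.0471, SE 1.10). Their levels were 347 to 1450 and 160 to 1142 CPM in the deeper columns. They were 9.04 to 177 and 18.7 to 83.8 CPM in the shallower Olfr2+ columns and 18.8 to 82.6 and 18.0 to 85.8 CPM in Olfr2-. The shallower Olfr2+ columns thus overlapped with Olfr2- for both genes. With all columns, the TMM-scaled sample levels of the labels overlapped too. Among 17 phosphatidylserine and apoptotic cell receptors only Itgb5, the integrin beta chain of a receptor for Mfge8, passed at 5.36 (edgeR adjusted p = 0.0452, SE 1.35). It was at 159 to 1409 CPM in the deeper columns, 4.31 to 5.56 CPM in the shallower Olfr2+ columns and 4.20 to 41.2 CPM in Olfr2-. None of the 73 passed in the shallower columns, where the median was 0.49, beside -0.43 over all genes, and the log2 fold changes of C1qb, C1qc and Itgb5 were 1.77, 0.97 and -1.39.

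The remaining lists gave no call: 0 of 3 TAM receptors, 0 of 13 engulfment genes, 0 of 6 do-not-eat-me genes, 0 of 8 find-me genes, 0 of 2 receptor sheddases and 0 of 15 corpse digestion genes. At an unadjusted p under 0.05, 2, 6, 1, 4, 0 and 5 of them were found, which is 18 of 47 (38.3%) against 32.1% of all genes. With DESeq2 2, 4, 1, 3, 0 and 2 passed its adjusted p upward, against 12.5%. DESeq2 also called 1 corpse digestion gene downward, against 8.21% of genes. Dock2, the Elmo1 partner of blood cells, was at 10387 CPM in Olfr2- 3B and at 124 to 550 CPM in the other 14 columns. Its log2 fold change was -1.38 (edgeR adjusted p = 0.269, SE 0.92) and became 1.495 without Olfr2- sample 3. Rac2, the blood cell Rac, was at 2.15 (edgeR adjusted p = 0.124, SE 0.93). Sphk1, which makes the find-me lipid sphingosine 1-phosphate, was at 0.39 to 5.02 CPM in Olfr2- and at 231, 82.5 and 1.51 CPM in the shallower Olfr2+ columns. In the deeper columns Sphk1 was at 0.28, 6.42 and 67.7 CPM (lowest, median, highest), so it was uneven there too. Its log2 fold change was 4.99 (edgeR adjusted p = 0.0632, SE 1.44) with all columns and 6.43 (adjusted p = 0.411) with the shallower ones, and adjusted p ran from 5.9e-05 to 0.640 over 17 alternatives. Cx3cr1, the fractalkine receptor, was at -0.31 (edgeR adjusted p = 0.851), and the sheddases Adam17 and Adam10, the first of which cleaves Mertk, were at -0.10 (adjusted p = 0.947) and 1.63 (adjusted p = 0.259). The lysosomal Lamp1 and the late endosomal Rab7 were at 2.46 (edgeR adjusted p = 0.0841) and 0.21 (adjusted p = 0.863).

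Within the 3 column sets the members did not vary as a block. After the set mean was subtracted from log2(CPM + 1), the Pearson correlation over the 15 columns was 0.63 for Pros1 and Lrp1, 0.63 for Axl and Lrp1, 0.61 for Mfge8 and Sirpa, and 0.45 for Gas6 and Mfge8. It was -0.75 for Mfge8 and Lrp1 and -0.60 for Axl and Gas6. Columns share libraries and depth, so these are descriptions. The most alike genes were sought among 8328 with a mean of at least 10 CPM, numbered gene models left out. They are the highest of 8328 correlations over 15 columns, so high values can arise from the choice alone. These were Hist1h4i (0.91) and Phldb1 (0.88) for Axl, and Lsm4 (0.90) and Cpe (0.82) for Gas6. Adh1 (0.91) and Lrrc8a (0.90) were most alike for Mfge8, and Nrp1 (0.87) and Ryk (0.86) for Lrp1. For Pros1 they were Fundc1 (0.92) and Chuk (0.90), for Elmo1 Bms1 (0.85) and Retnlg (0.82), for Sirpa Calm3 (0.86) and Rfx7 (0.86), and for Cd47 Zfand5 (0.89) and Chd1 (0.84).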

How the data were processed

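The authors deposited a table of raw read counts per gene in 15 columns, without normalization. Per the submitters' processing notes, DESeq2 1.34, DRAGEN, STAR 2.7.1 and GRCm39 were used, with no role for each. The strand setting, like the annotation release, is not given in the sources used here. Reads of antisense and overlapping genes may not be told apart, and without molecular identifiers counts are not independent molecules. No pair of columns agreed within sampling noise (chi-square per degree of freedom at least 610). The 9 members and all lists were chosen with earlier results of these data known.

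For each numbered sample the counts of its columns were added up (3 samples against 3). They were tested with the quasi-likelihood test of edgeR 4.0.16 (R 4.3.3), with TMM scaling and its expression filter by group. Benjamini-Hochberg adjustment was over all genes at 0.05. SE is the absolute log2 fold change divided by the square root of the test's F. The code was run on counts simulated from edgeR's own fitted dispersions. Those counts held no depth sets or marker differences, so that run cannot say how the test behaves under them. Adjusted p in the report are from the edgeR test unless another is named. CPM per column uses the column total, and CPM per kilobase the exon length in GENCODE M21 (GRCm38), which held 99.1% of the gene identifiers. Ratios within a sample used a pseudocount of 0.5 and exact two-sided permutation tests, adjusted over 24 ratios. Alternatives were DESeq2 1.42.0, limma-voom 3.58.1, other scalings, filters and units, a replicate block, the depth sets and leaving out each sample. The genes named are the 9 members, Mertk, every list gene that passed and, in lists where none passed, the 2 with the highest mean CPM, plus for each member with a mean of at least 10 CPM the 2 genes most like it.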

Additional observations from a re-analysis of the deposited data

Results flagged for a closer look

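Across 18 groups of columns tested for a single value far from the rest, 3 were found. Chance alone marks about 1 group in 20 where values are independent and normally distributed. These groups hold repeats of a library, and the Olfr2+ groups pool both depth sets, so that rate need not hold here. Tyro3 was at 1.501 CPM in Olfr2+ 3C, with 0.70 CPM the next highest of the 10 Olfr2+ columns. Lrp1 was at 679 CPM in Olfr2- 1A, with 170 CPM the next highest of the 5 Olfr2- columns. Elmo1 was at 396 CPM in Olfr2+ 3D, with 194 CPM the next highest of the 10 Olfr2+ columns.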

How the results depend on the processing

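The number of members called higher was 2 with all columns, against 1.12% of genes. It was 4 with DESeq2 (12.5% of genes) and 4 with each library name as a unit (3.40%). It was 0 after filtering to 10 CPM with scaling recomputed, with limma-voom and with columns below 60 M counts. The count was also 0 with each column as a unit and the depth set as a covariate, and with the replicate block. These settings called at most 2 genes higher. When single samples were left out, 0 to 3 members and 6 to 973 genes were called higher. None was called lower under any alternative run. At an unadjusted p under 0.05, scaling recomputed gave 3 of 8 members (1389 of 8504 genes) and limma-voom 6 of 9 (7537 of 24362). Columns below 60 M counts gave 0 of 9 (3127 of 29989) and the depth covariate 0 of 9 (1432 of 20411). The replicate block gave 3 of 9 (1682 of 24362). By library totals, members whose samples did not overlap went from 5 higher and 1 lower to 2 and 2 with all columns, and from 3 and 1 to 0 and 2 in columns below 60 M.

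Genes called higher and lower, 273 and 112 in the report, were 3896 and 2561 with DESeq2, 86 and 310 with library totals alone, 642 and 239 with no filter, 525 and 3 after filtering to 10 CPM with scaling kept, 649 and 244 with each column a unit, and 885 and 683 with each library name a unit. Both were 0 with scaling recomputed (1389 genes at an unadjusted p under 0.05), limma-voom (7537), columns below 60 M counts (3127), and the depth set as covariate (1432). With the replicate block they were 2 and 0; the samples numbered 3 and 4 under both labels did not deviate together (correlations of 0.02 and -0.07), so the numbers were not taken as pairs. Leaving out single samples gave 6 to 973 higher and 0 to 113 lower; the lowest counts were without Olfr2+ sample 2 and the highest without Olfr2+ sample 4.

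Log2 fold changes that reversed are given by gene, with the range over samples left out. Axl in the shallower columns ran from -2.56 (without Olfr2+ sample 4) to 2.16, alternatives chosen after seeing the data like all that leave out a sample there. Mfge8 was -0.12 with columns below 60 M and -0.74 with the depth covariate; in the shallower columns it ran from -0.55 to 0.20, above 0 without Olfr2- sample 3, Olfr2- sample 4 or Olfr2+ sample 3. Lrp1 in the shallower columns was -0.074 with library totals. Elmo1 was -0.30 with library totals and -0.87 with scaling recomputed. Cd47 was -1.22 with library totals, -0.027 with no filter, -1.60 with scaling recomputed, -0.26 with each column a unit, -0.39 in columns below 60 M, -0.93 with the depth covariate, -0.53 with the replicate block, and -0.37 to 0.29 with a sample left out. Itgb5 was -1.39 in columns below 60 M and -1.95 with the depth covariate. Dock2 ran from -2.02 to 1.495, the latter without Olfr2- sample 3. Cx3cr1 was 0.24 with limma-voom, 0.60 with the replicate block and -0.68 to 0.70 with a sample left out. Adam17 was 0.059 with DESeq2 and -0.58 to 0.78 with a sample left out. Rab7 was -0.98 with library totals, -1.30 with scaling recomputed, -0.15 with each column a unit, -0.36 in columns below 60 M, -0.54 with the depth covariate, and -0.27 to 1.57 with a sample left out. Among ratios, Gas6 to Pros1 (-0.16), Axl to Mertk (-1.83) and Mfge8 to Gas6 (-1.10) reversed in columns below 60 M, and Axl to Mertk ran from -0.73 (without Olfr2+ sample 2) to 1.18. The cause was not tested for any of these.

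All 7 deeper columns are Olfr2+. In Olfr2+ sample 2 every column is deeper, and in Olfr2+ sample 3 the shallower column 3D gave 33.8 M of 272.6 M summed counts. In the all-column fits, label and depth set therefore cannot be told apart in Olfr2+ samples 2 and 3. Only Olfr2+ sample 4 has no deeper column. Tyro3 rests on 2 to 114 counts in each Olfr2+ column. Where 1 sample is left in a group, it is assumed to vary like the others.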
